A study of Agaricus bisporus with 8 samples.

Results

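A set of 40 genes (of 449 expressed genes and 10413 on the array) of the button mushroom Agaricus bisporus gave a drought response of 1 direction on every riboflavin array. Their mean response in mycelium grown on plain water stayed under a set limit. Of these, 28 had a higher signal under drought and 12 had a lower one. A gene counted as expressed where its net signal, the spot signal minus the local background, was 40 or more in at least 2 of the 16 channels. Members were the expressed genes whose deposited log2 ratio of drought over irrigated had 1 sign on all 4 riboflavin arrays, a riboflavin mean of 0.3 or more in size and a water mean under 0.6 in size. The water limit was wider than the riboflavin minimum, so a member could respond as much on water. The water mean was the larger in size in AGABI2DRAFT_119137 (-0.390 against -0.372) and AGABI2DRAFT_146038 (0.368 against 0.352). The genes were thus chosen by their drought ratios, which are described below without a test.

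The organism was A. bisporus var bisporus, strain H97, grown as mycelium on hay in gas-tight chambers. Irrigation with water, or with water holding 50 µM riboflavin, ran for 3 weeks and was then stopped in the drought arm. The 4 groups were water day 3, water day 7, riboflavin day 3 and riboflavin day 7, counted from the stop of irrigation, with 2 arrays each. Each array paired RNA of mycelium under drought with RNA of mycelium that was still irrigated, both with the same supplement and of the same day. Drought RNA was labelled with Cy3 on replicate 1 and with Cy5 on replicate 2 of every group, so the replicate number and the dye orientation were 1 variable. The titles and the design speak of replicates, yet in the descriptions both arrays of a group share 1 biological replicate number. Whether they came from separate cultures is thus not settled, and the p-values below cover no more than array-to-array spread, possibly technical.

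Riboflavin (vitamin B2) is the precursor of FMN and FAD, the cofactors of flavoproteins, which include the flavin-bearing subunits of respiratory complexes I and II. Fungi and plants make it themselves, whereas animals take it up with food. Filamentous fungi meet water loss by building up compatible solutes such as mannitol and trehalose and by changing their walls and membranes. An RNA level in a mixed sample of hyphae does not tell whether fewer cells held a transcript or each cell held less of it.

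Signals were low throughout, with 478 to 797 genes above background in at least 1 channel of an array. The laccases lcc1 and lcc2 and the manganese peroxidase MnP, enzymes of lignin breakdown known from vegetative mycelium, reached net signals of no more than 32, 30 and 39.5 and were not expressed by the rule. The mycelial label could therefore not be checked against these markers. All 8 arrays lay on 1 slide, the water arrays in row 1 and the riboflavin arrays in row 2, so slide row and supplement cannot be told apart. With the dyes as labelled, the ratios of the 2 riboflavin arrays correlated negatively across the 449 expressed genes on both days. Pearson's r was -0.378 on day 3 (Spearman's rho -0.247) and -0.475 on day 7 (rho -0.339). Across days, r was 0.67 for the replicate 1 arrays and 0.87 for the replicate 2 arrays. The water pairs gave 0.38 and 0.55. Genes are not independent replicates, and the arrays share labelling and probe chemistry.

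The 40 genes are thus those on which the opposed riboflavin arrays had the same sign. With the ratios of both riboflavin replicate 2 arrays turned, 137 genes met the rule. None of the 40 could be among them, since a gene of 1 sign on 4 arrays loses it when 2 of them are turned. With water and riboflavin exchanged, 69 genes met it and 1 was shared. Both the direction and the choice of the 40 genes therefore rest on the dyes in the labels, and whether those of 1 riboflavin pair were exchanged was not tested.

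**Figure D1:**
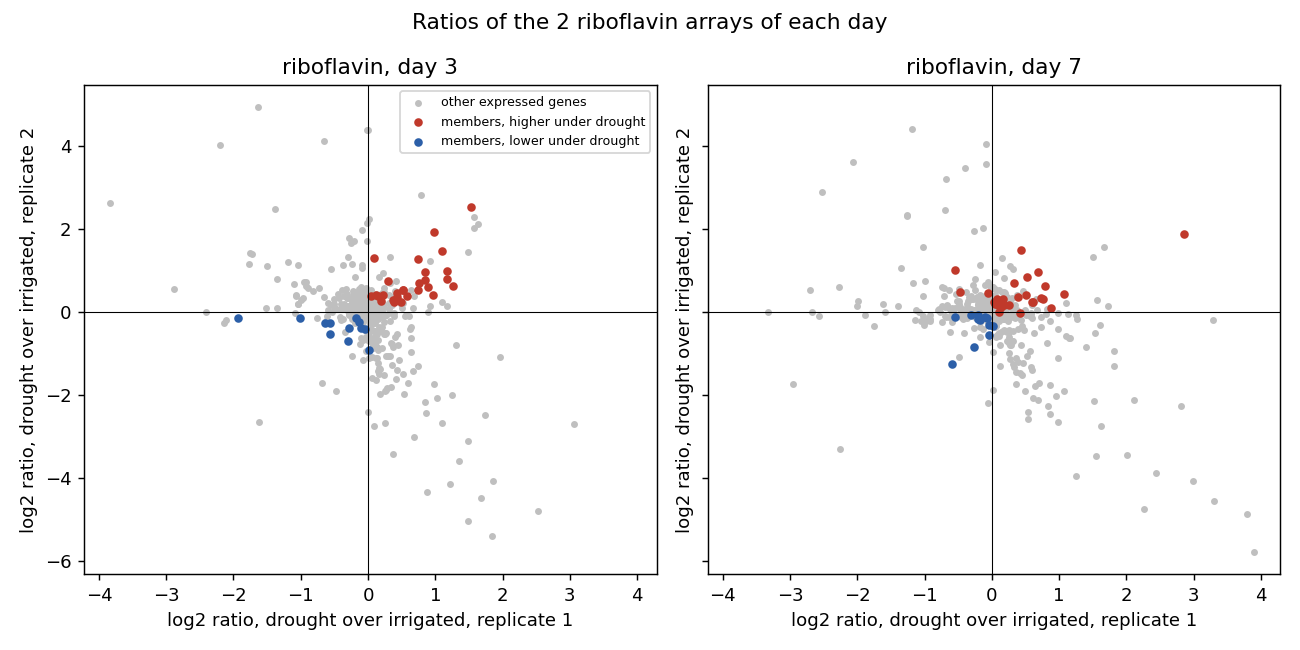
Log2 ratio of drought over irrigated on riboflavin replicate 1 (x axis) and replicate 2 (y axis), with day 3 on the left and day 7 on the right. Grey points are the other expressed genes, red points the 28 members higher under drought and blue points the 12 lower ones. The members lie in or beside the quadrants of equal sign, whereas the grey cloud runs from the upper left to the lower right (r -0.378 and -0.475).

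In the deposited values, 64 expressed genes had 1 sign on all 4 riboflavin arrays and 51 of them reached a mean of 0.3 in size. Only 11 of the 51 were left out for their water mean, and all 11 had the same sign in water. Among genes that met the other conditions, the ones just inside the riboflavin limit were AGABI2DRAFT_207677 (deposited mean 0.311), AGABI2DRAFT_115525 (0.325) and AGABI2DRAFT_146038 (0.352). Just outside it were AGABI2DRAFT_187355 (0.273), AGABI2DRAFT_185370 (0.271) and AGABI2DRAFT_190083 (0.266). The members nearest to the water limit were NdufA1 (0.517), AGABI2DRAFT_205009 (0.491) and AGABI2DRAFT_67862 (0.481). The next genes beyond it lay well away, AGABI2DRAFT_121244 at -0.796, AGABI2DRAFT_211434 at 0.892 and AGABI2DRAFT_194064 at 0.917. Few genes therefore sat near the water limit, while the riboflavin limit cut through a dense range.

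**Figure D2:**
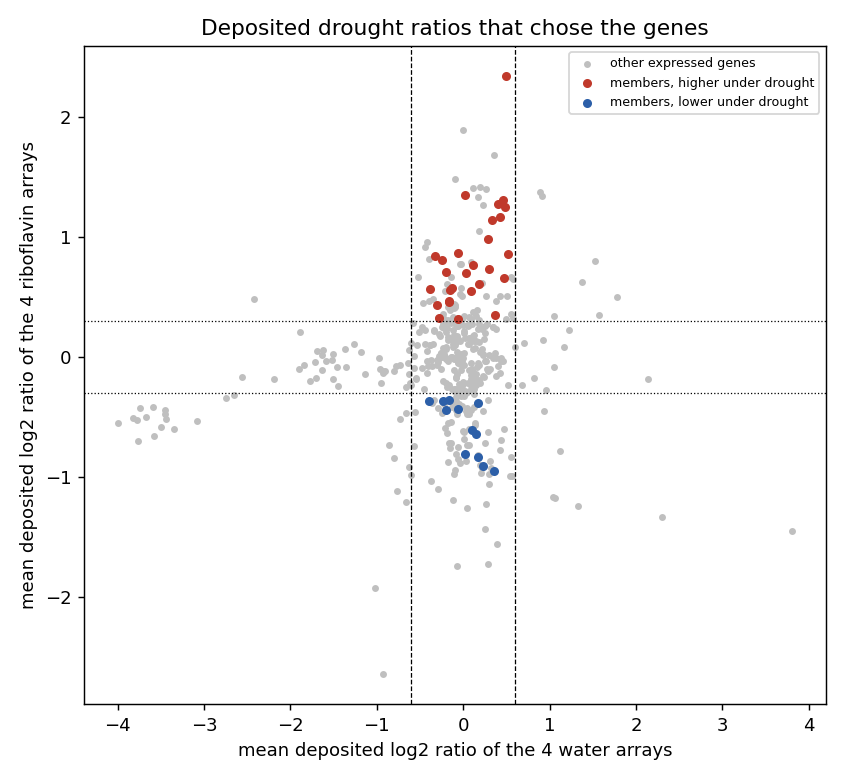
Mean deposited log2 ratio of drought over irrigated on the 4 water arrays (x axis) and the 4 riboflavin arrays (y axis) for the 449 expressed genes. Dotted lines mark the riboflavin limit of 0.3 and dashed lines the water limit of 0.6. Red and blue points are members, and AGABI2DRAFT_205009 stands alone at the top with 2.34.

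All ratios from here on are log2 ratios of drought over irrigated after a background correction with an offset of 50, which pulls the ratios of dim genes towards 0 (the deposited values used an offset of 16). On this scale 33 of the 40 genes kept 1 sign on the 4 riboflavin arrays, against 13.4% of the expressed genes. Of these, 23 were above 0 (7.57% of the expressed genes) and 10 below (5.79%). The rule chose them on this sign, so nothing is read from these shares. The 7 genes that did not keep it were AGABI2DRAFT_144976, AGABI2DRAFT_75571, AGABI2DRAFT_116129, AGABI2DRAFT_146038, AGABI2DRAFT_207677, AGABI2DRAFT_191676 and AGABI2DRAFT_183881. Each kept the sign on 3 of its 4 arrays. The riboflavin mean ranged from 0.18 to 1.91 among the genes higher under drought (median 0.45) and from -0.69 to -0.17 among the lower ones (median -0.30). The median over all expressed genes was -0.02.

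**Figure D3:**
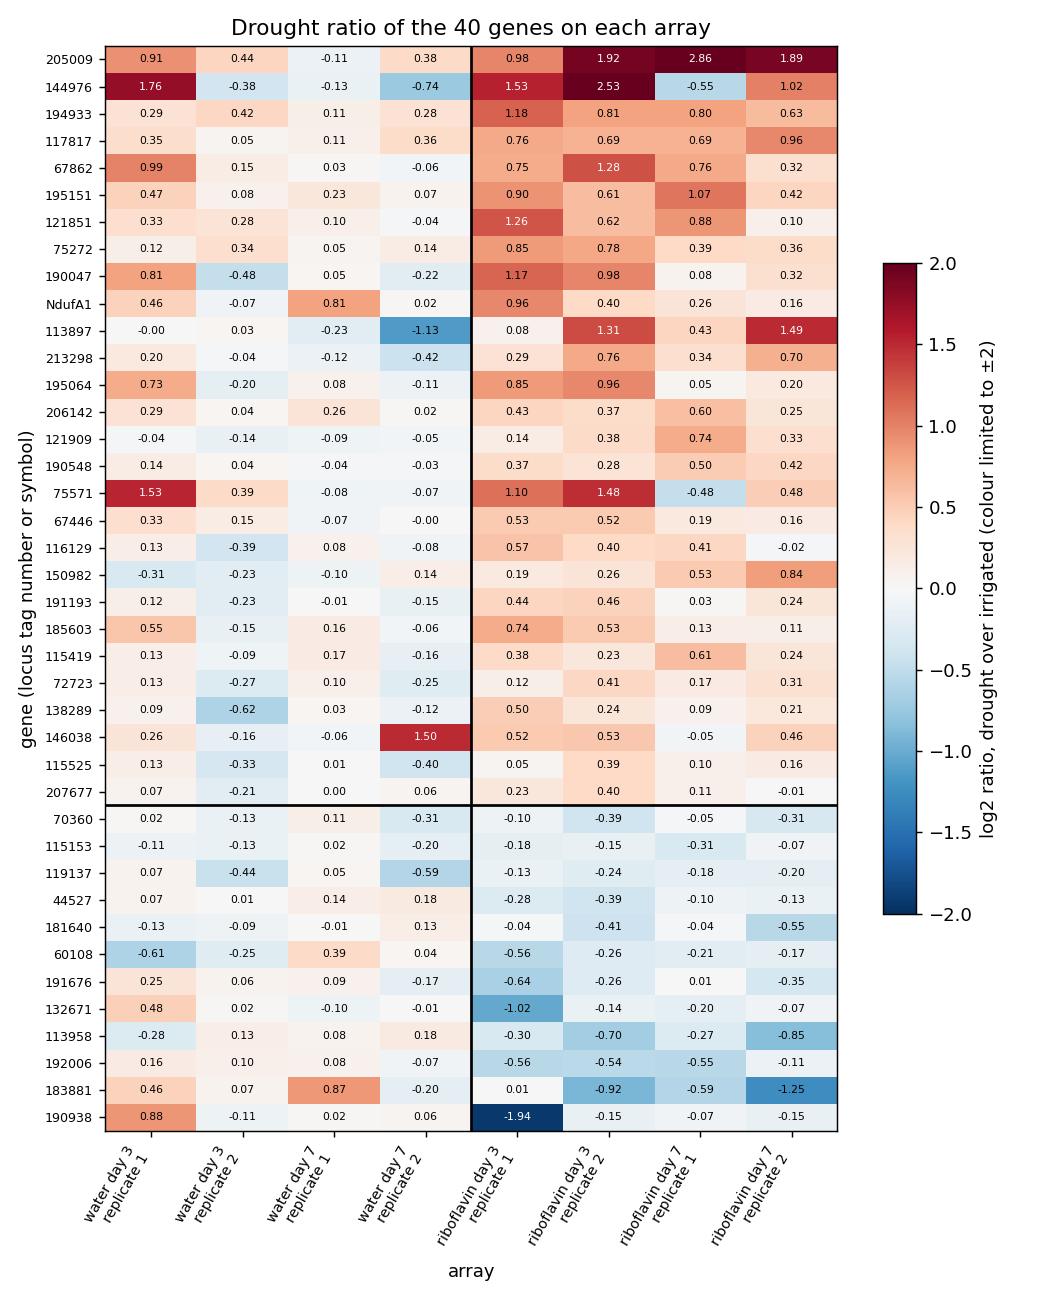
Log2 ratio of drought over irrigated of each of the 40 genes (rows) on each of the 8 arrays (columns), printed in the cells and coloured from blue (lower under drought) to red (higher). The horizontal line parts the 28 higher from the 12 lower genes and the vertical line parts water from riboflavin. The riboflavin side holds the stronger colours, and the water day 3 replicate 1 column is red for most of the 28 genes.

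AGABI2DRAFT_205009 had the largest response of the 40. On the riboflavin arrays, in the order replicate 1 then replicate 2, day 3 gave 0.98 and 1.92 and day 7 gave 2.86 and 1.89. The water arrays gave 0.91 and 0.44 (day 3), then -0.11 and 0.38 (day 7). Every riboflavin ratio lay above every water ratio, though the lowest riboflavin value, of day 3 replicate 1, was close to the highest water value. In the deposited values these 2 overlapped, with 1.13 on riboflavin day 3 replicate 1 and 1.35 on water day 3 replicate 1. The riboflavin mean was 1.91 ± 0.77 (SD, n = 4 arrays of both days), a 3.76-fold higher signal under drought, and the water mean was 0.40 ± 0.42. Both spots of this gene had the same sign on all 4 riboflavin arrays, and all of its 16 channels were well above background.

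A further 4 of the 10 highest genes had riboflavin ratios that lay close together. AGABI2DRAFT_194933 gave 1.18 and 0.81 on day 3 and 0.80 and 0.63 on day 7, a mean of 0.85 ± 0.23 (SD, n = 4), against water ratios of 0.11 to 0.42. AGABI2DRAFT_117817 gave 0.76, 0.69, 0.69 and 0.96 in the same order, a mean of 0.78 ± 0.12, against water ratios of 0.05 to 0.36. Riboflavin and water arrays did not overlap for either gene, and water ratios were above 0 on all 4 arrays for both. AGABI2DRAFT_75272 followed the same pattern with smaller ratios, 0.85 and 0.78 on day 3, 0.39 and 0.36 on day 7 and 0.05 to 0.34 on water. AGABI2DRAFT_195151 gave 0.90, 0.61, 1.07 and 0.42 with riboflavin and 0.07 to 0.47 on water, where the highest water value passed the lowest riboflavin value.

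The irrigated channel of these 4 genes was dim, which limits what the ratios can say. On both riboflavin day 7 arrays it was not well above background for AGABI2DRAFT_117817, AGABI2DRAFT_195151 and AGABI2DRAFT_75272. A bound set the drought channel against the higher of 2 values on each array, the dimmest signal that counted as above background or the gene's own irrigated signal. Here the gene's own signal was the higher, and drought was at least 1.77-fold, 1.68-fold and 1.30-fold brighter. These bounds compare channel means after loess and quantile scaling. On water day 7 the irrigated channel of all 4 genes was above background on 0 arrays. The drought channel passed there on 1 array, and on 0 for AGABI2DRAFT_75272. The small water ratios of that day therefore compare signals near background.

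AGABI2DRAFT_144976 was the second highest by its mean, yet its arrays differed most. With riboflavin it gave 1.53 and 2.53 on day 3 but -0.55 and 1.02 on day 7, a mean of 1.13 ± 1.29 (SD, n = 4). On water it gave 1.76 and -0.38 on day 3 and -0.13 and -0.74 on day 7. The water day 3 replicate 1 value exceeded 3 of the 4 riboflavin values, so the supplements overlapped. Its 16 channels were all well above background.

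AGABI2DRAFT_67862 and AGABI2DRAFT_190047 were also high on water day 3 replicate 1. AGABI2DRAFT_67862 gave 0.75, 1.28, 0.76 and 0.32 with riboflavin, against 0.99 on that water array and -0.06 to 0.15 on the other water arrays. AGABI2DRAFT_190047 gave 1.17 and 0.98 on day 3 and 0.08 and 0.32 on day 7 with riboflavin, against 0.81 on that water array and -0.48 to 0.05 on the others. AGABI2DRAFT_121851 gave 1.26, 0.62, 0.88 and 0.10 with riboflavin and -0.04 to 0.33 on water. The riboflavin and water arrays of all 3 genes overlapped.

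NdufA1 (AGABI2DRAFT_195692), an accessory subunit of respiratory complex I, was the only 1 of the 40 with a gene symbol. With riboflavin it gave 0.96 and 0.40 on day 3, then 0.26 and 0.16 on day 7, a mean of 0.45 ± 0.36 (SD, n = 4). Water gave 0.46 and -0.07, then 0.81 and 0.02, a mean of 0.31 ± 0.41. The arrays of the supplements overlapped, and the means differed by less than either SD. Its net signal never passed 67.5, and the irrigated channel was above background on 0 of the 8 arrays. Drought was at least 1.57-fold brighter on riboflavin day 3, where the drought channel was above background on both arrays. On riboflavin day 7, water day 3 and water day 7 that channel was above background on 1 array each. The mean over both arrays gave 1.05-fold, 1.14-fold and 1.29-fold there, which are not lower bounds for those days.

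In AGABI2DRAFT_113897 and AGABI2DRAFT_75571, named here once their values were known, all 16 channels were well above background. AGABI2DRAFT_113897 gave 0.08 and 1.31 on day 3 and 0.43 and 1.49 on day 7 with riboflavin. On water its ratios were -0.00291 and 0.0329 on day 3, then -0.23 and -1.13 on day 7, so the supplements did not overlap on this scale. In both supplements replicate 2 of day 7 held the extreme value. In the deposited values the supplements overlapped, with 0.21 on riboflavin day 3 replicate 1 and 0.31 on water day 3 replicate 1. AGABI2DRAFT_75571 ran from -0.48 (day 7 replicate 1) to 1.48 (day 3 replicate 2) with riboflavin and from -0.08 (day 7 replicate 1) to 1.53 (day 3 replicate 1) on water. Its day 3 arrays were higher than its day 7 arrays in both supplements.

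Among the 12 genes lower under drought, AGABI2DRAFT_183881 had the lowest mean. With riboflavin it gave 0.01 and -0.92 on day 3, then -0.59 and -1.25 on day 7, a mean of -0.69 ± 0.54 (SD, n = 4). Water gave 0.46 and 0.07, then 0.87 and -0.20. The day 3 replicate 1 array had no response with riboflavin and fell among the water values. AGABI2DRAFT_113958 kept its sign on every riboflavin array, with -0.30, -0.70, -0.27 and -0.85, a mean of -0.53 ± 0.29. Its water ratios ran from -0.28 to 0.18, and of these only day 3 replicate 1 overlapped the riboflavin values.

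The mean of AGABI2DRAFT_190938 rested on 1 array. It gave -1.94 on riboflavin day 3 replicate 1 and -0.15, -0.07 and -0.15 on the other riboflavin arrays, a mean of -0.58 ± 0.91. The same gene gave 0.88 on water day 3 replicate 1 and -0.11 to 0.06 on the other water arrays. AGABI2DRAFT_132671 was alike, with -1.02 on riboflavin day 3 replicate 1 against -0.20 to -0.07 on the other 3, and 0.48 on water day 3 replicate 1. In both genes the drought channel was above background on 0 of the 4 riboflavin arrays and the irrigated channel on 1. On riboflavin day 3 the mean over both arrays put irrigated mycelium 2.05-fold brighter for AGABI2DRAFT_190938 and 1.49-fold brighter for AGABI2DRAFT_132671. The irrigated channel passed on 1 of these arrays, so these are not lower bounds for the day. The replicate 2 ratios were -0.15 and -0.14.

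AGABI2DRAFT_192006 gave -0.56, -0.54, -0.55 and -0.11 with riboflavin and -0.07 to 0.16 on water, so 3 arrays were nearly equal and day 7 replicate 2 was small. Its irrigated channel was at least 1.47-fold brighter on riboflavin day 3. On riboflavin day 7 that channel was above background on 1 array, and the mean over both arrays gave 1.22-fold, which is not a lower bound. AGABI2DRAFT_60108, above background in all 16 channels, gave -0.56, -0.26, -0.21 and -0.17 with riboflavin and -0.61, -0.25, 0.39 and 0.04 on water. Its day 3 ratios were nearly the same with both supplements. The means of AGABI2DRAFT_191676, AGABI2DRAFT_181640, AGABI2DRAFT_44527 and AGABI2DRAFT_119137 were -0.31, -0.26, -0.23 and -0.19. With riboflavin, the drought channel of AGABI2DRAFT_191676 was above background on 0 arrays and its irrigated channel on 1. For AGABI2DRAFT_119137 each channel was above background on 1 riboflavin array, and its net signal reached 40 in 0 riboflavin channels. The riboflavin means of AGABI2DRAFT_191676 and AGABI2DRAFT_119137 therefore mostly compare signals near background. For AGABI2DRAFT_119137 the water mean, -0.23 ± 0.34, was as low as the riboflavin mean.

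The rule limited the size of the water mean but not its sign. The water mean had the sign of the riboflavin mean in 23 of the 40 genes, 18 of the 28 higher and 5 of the 12 lower, against 53.7% of the expressed genes. That share, 57.5%, was near the background. The 4 water arrays differed in this. On water day 3 replicate 1, 25 of the 28 genes were above 0, against 56.6% of the expressed genes. On the other water arrays the counts were 12 (day 3 replicate 2, 37% of the expressed genes), 17 (day 7 replicate 1, 49.9%) and 10 (day 7 replicate 2, 46.1%). Without water day 3 replicate 1 the sign was shared by 18 of the 40 genes.

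Riboflavin and water ratios did not overlap in 12 of the 40 genes. All 4 riboflavin ratios lay above all 4 water ratios in 10 genes (7.19% of the expressed genes), and below them in AGABI2DRAFT_44527 and AGABI2DRAFT_192006 (1.12%). Among the 10, the ratios of AGABI2DRAFT_205009, AGABI2DRAFT_113897 and AGABI2DRAFT_115419 did overlap in the deposited values. The rule favoured genes without overlap, so nothing is read from these shares. AGABI2DRAFT_192006 was above background in neither channel on the 4 water arrays. Of the 40 genes, 6 (5 of them in the higher group) were above 0 on all 4 water arrays, against 9.66% of the expressed genes.

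Splitting each ratio into its channels showed on which side the arrays differed. The drought channel was brighter with riboflavin than with water in all 28 genes of the higher group (63.8% of the expressed genes), by a median of 0.37 on the log2 scale. When a single array was left out, this count ran from 26 to 28, and the share of the expressed genes from 52.8% to 67.6%. The irrigated channel was brighter in 12 of the 28 (55.5% of the expressed genes), with a median difference of -0.02. In the lower group the irrigated channel was brighter with riboflavin in 11 of 12 genes, by a median of 0.28, and the drought channel in 5 of 12, with a median of -0.07. By these medians the difference lay in the drought channel for the 28 genes and in the irrigated channel for the 12. A ratio that is high with riboflavin and small with water favours this order. The net signal minimum favours it too, since only 17 of the 28 genes and 5 of the 12 reached it in their water channels alone. The others counted as expressed only with their riboflavin channels included. The order is therefore given as a description, and nothing is read from it.

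AGABI2DRAFT_205009 showed it most plainly. Its drought channel was 8.82, 9.17, 9.13 and 9.08 on the log2 scale on the 4 riboflavin arrays and 7.40, 7.59, 6.59 and 7.24 on the 4 water arrays. Its irrigated channel was 7.84, 7.25, 6.28 and 7.19 with riboflavin and 6.49, 7.15, 6.70 and 6.87 with water. The drought channels did not overlap and were steady with riboflavin (SD 0.16), whereas the irrigated channels overlapped. In AGABI2DRAFT_183881 it was the irrigated channel whose mean differed, with 6.88, 7.96, 7.71 and 8.24 with riboflavin and 6.77, 6.46, 6.60 and 7.29 with water. Riboflavin day 3 replicate 1, at 6.88, fell among the water values, so these channels overlapped too. The drought channel of this gene stayed between 6.53 and 7.46 on all 8 arrays. In AGABI2DRAFT_113897 both channels differed, the drought channel by 0.47 and the irrigated channel by -0.69 (riboflavin minus water).

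**Figure D4:**
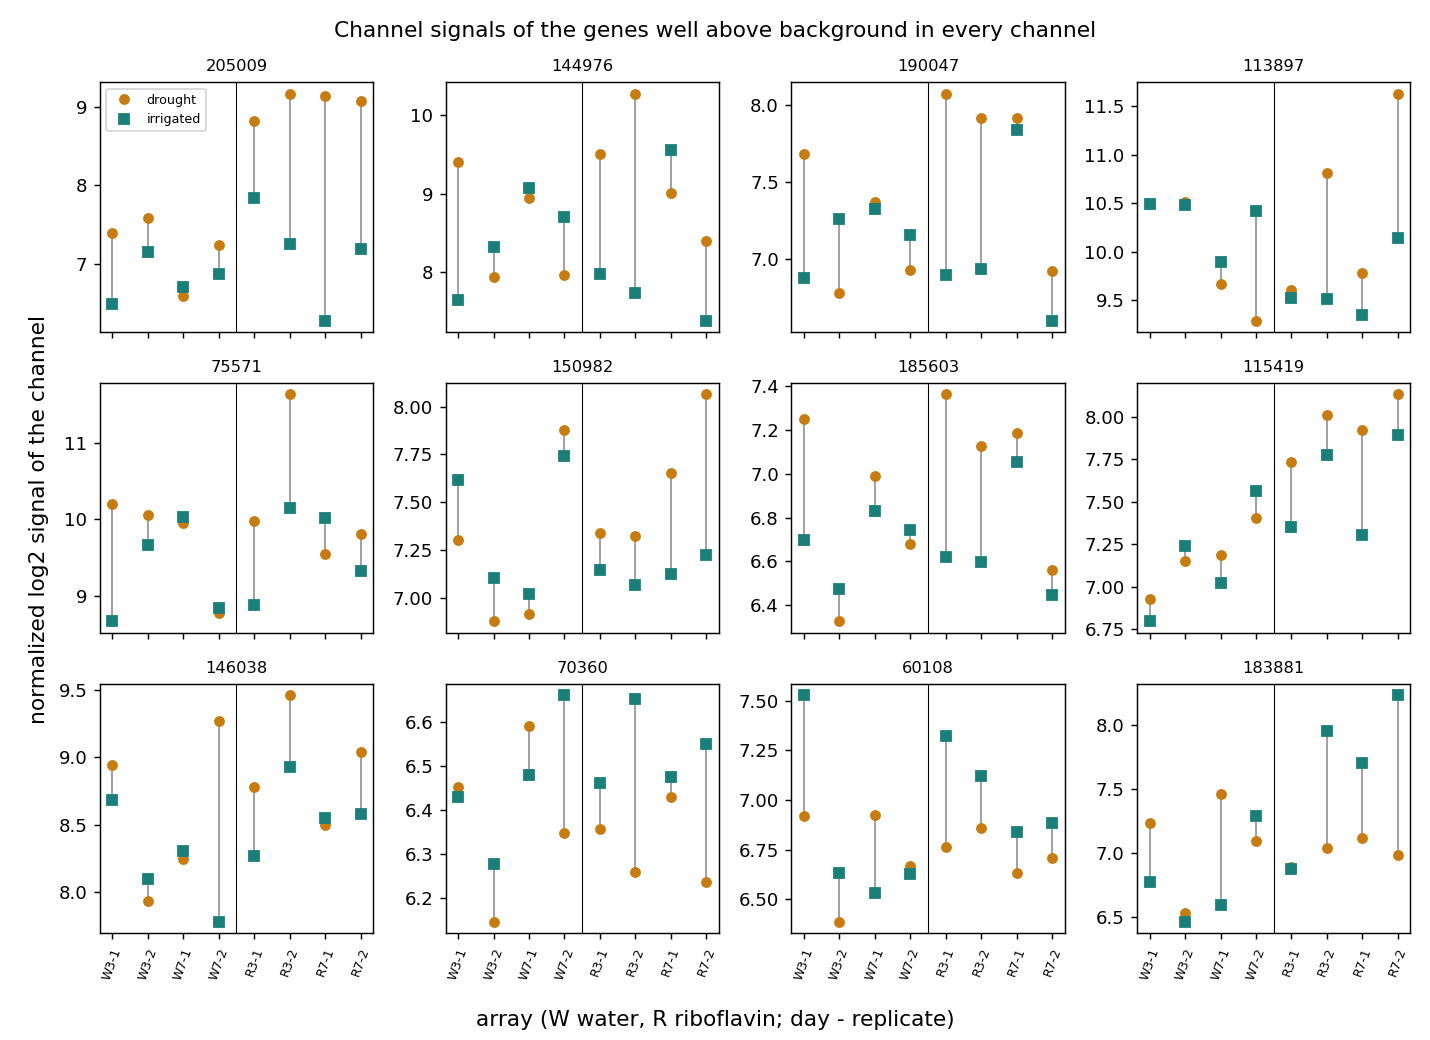
Normalized log2 signal of the drought (circles) and irrigated (squares) channel on each array for the 12 genes well above background in all 16 channels. The first 4 positions are water arrays (W3-1 is water day 3 replicate 1) and the last 4 are riboflavin arrays, and the length of a line is the log2 ratio. In the AGABI2DRAFT_205009 panel the circles stand between 8.82 and 9.17 on the riboflavin arrays and at 7.59 or lower on water.

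Counts of arrays above background were taken by channel and by supplement. On all 4 riboflavin arrays the drought channel passed the background test in 27 of the 28 higher genes (43.2% of the expressed genes) and the irrigated channel in 9 (29.4%). On the 4 water arrays the counts in the same 28 genes were 14 for the drought channel and 16 for the irrigated channel. In the lower group the riboflavin counts were 5 and 6 of 12, and the water counts were 4 and 3. No share over the expressed genes was taken on the water arrays, so no difference between the supplements is read from these counts. NdufA1, with 3 arrays, was the exception among the 28. An expressed gene needed signal in some channel, so genes with a bright drought channel on these arrays could enter the 28 more easily.

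The day of sampling was not part of the rule, yet counts of day order are not free of it. The rule asked for 1 sign on both replicates, which were opposed over the expressed genes. A gap between replicates can hide an order of days, so nothing is read from the shares below. Both day 3 riboflavin ratios were above both day 7 ratios in 13 genes (32.5% of the 40, against 14.7% of the expressed genes), and all 13 belonged to the higher group. They included AGABI2DRAFT_144976, AGABI2DRAFT_194933, AGABI2DRAFT_75272, AGABI2DRAFT_190047 and NdufA1. The opposite order was found in 5 genes (9.13% of the expressed genes), namely AGABI2DRAFT_190548 and AGABI2DRAFT_150982 of the higher group and AGABI2DRAFT_44527, AGABI2DRAFT_60108 and AGABI2DRAFT_190938 of the lower one. The median difference of day 7 minus day 3 was -0.27 in the higher group and 0.14 in the lower group, against 0.01 over all expressed genes. Members went both ways within each group, from -1.80 to 0.92 in the higher and from -0.47 to 0.94 in the lower group. The median of the same difference with riboflavin minus that on water was -0.10 in the higher group, close to the -0.12 over all expressed genes. On water, 11 of the 40 had both day 3 ratios above both day 7 ratios (12.6% of the expressed genes), and 3 of the 13 were among them. The count of 13 fell to 8 with the scanner's processed signals (11.4% of the expressed genes) and with median centring (9.13%), and 2 of those 8 were then in the lower group.

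No day difference passed the test. Limma's moderated test over all 449 expressed genes called 0 genes (0% of them) for day 7 minus day 3 with riboflavin, 0 on water and 0 for the difference between the supplements, at an adjusted p under 0.05. At an unadjusted p under 0.05 there were 9, 8 and 2 genes, of which 1, 0 and 0 were among the 40. That gene was AGABI2DRAFT_75571, with -1.29 ± 0.50 (limma SE), an unadjusted p of 0.044 in limma and an adjusted p of 1.00. AGABI2DRAFT_205009 went the other way, 0.92 ± 0.49 higher on day 7 with riboflavin and -0.54 ± 0.49 on water. With the replicate number as a separate term for each supplement, 0 genes were again called in the 3 comparisons. Without water day 3 replicate 1, 31 genes were called on water, 0 of them among the 40. In that fit water day 3 is a lone array, assumed to vary like the other groups.

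The mean of both channels of an array, which a ratio leaves out, gave the signal level of each gene. With riboflavin it was higher than with water in 35 of the 40 genes (87.5%, against 58.6% of the expressed genes), 24 of the 28 and 11 of the 12. The median difference was 0.19 in the higher group and 0.13 in the lower group on the log2 scale, against 0.05 over all expressed genes. On all 4 riboflavin arrays the level lay above all 4 water arrays in 7 genes (14.6% of the expressed genes). These were AGABI2DRAFT_205009, AGABI2DRAFT_194933, AGABI2DRAFT_195151, AGABI2DRAFT_121851, AGABI2DRAFT_206142, AGABI2DRAFT_115419 and AGABI2DRAFT_181640. The reverse was found in 0 of the 40 (8.54% of the expressed genes). These counts are not free of the rule and support nothing. The net signal minimum of 40 was reached in fewer than 2 water channels by 18 of the 40 genes, 5 of the 7 just named among them, so these counted as expressed only with their riboflavin channels included. In the 22 genes that reached it on water alone, the level was higher with riboflavin in 18, and it lay above all water arrays in 2. The shares over the 291 expressed genes chosen in the same way were 41.6% and 5.92%.

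**Figure D5:**
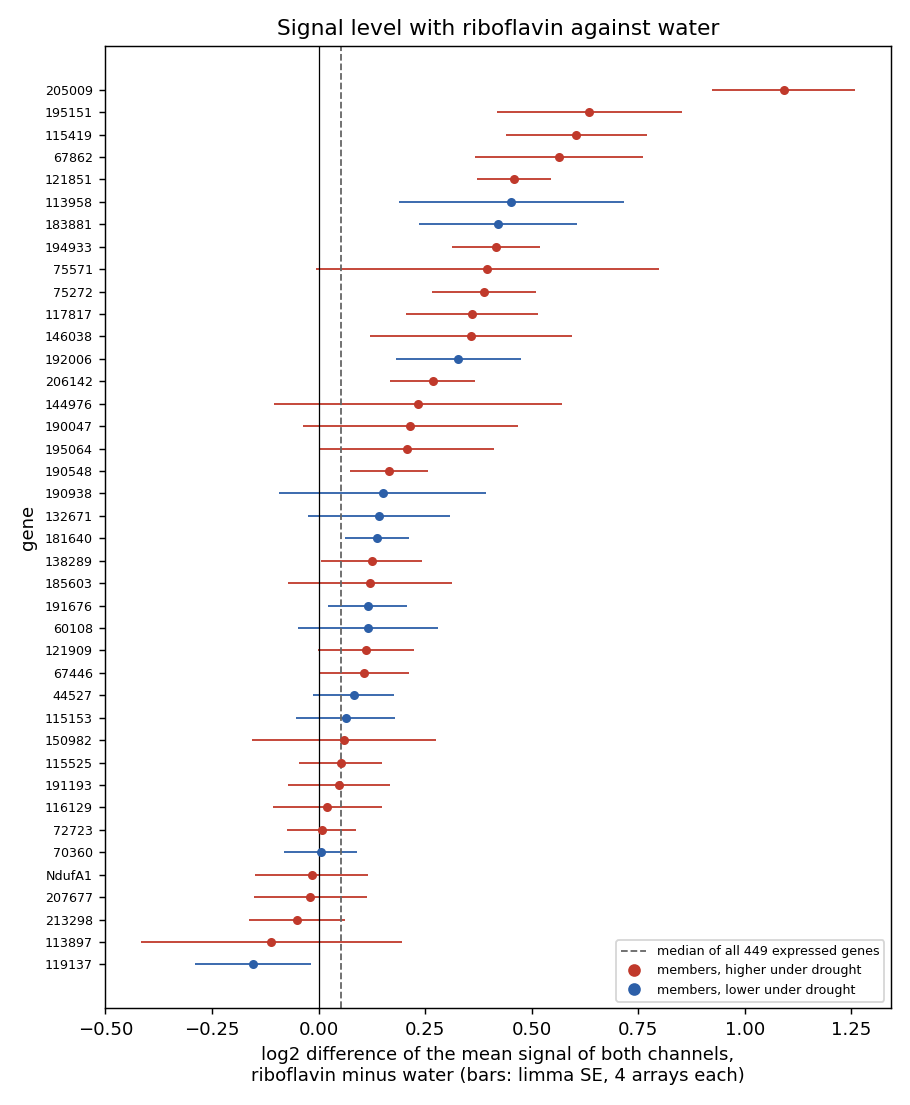
Difference in log2 signal level (mean of both channels), riboflavin minus water, for the 40 genes, with limma standard errors (4 arrays per supplement). Red points are the 28 genes higher under drought with riboflavin, blue points the 12 lower ones, and the dashed line is the median of all expressed genes, 0.05. AGABI2DRAFT_205009 stands apart at 1.09.

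Limma called 8 of the 449 expressed genes for the level (1.78%), 7 of them higher with riboflavin (1.56%), and 1 of the 8 was among the 40. AGABI2DRAFT_205009 had levels of 8.33, 8.21, 7.71 and 8.13 on the riboflavin arrays and 6.94, 7.37, 6.65 and 7.06 on the water arrays. The groups did not overlap, and the difference was 1.09 ± 0.167 (limma SE, adjusted p = 0.0408). Most of it lay in the drought channel (1.84), while the irrigated channel differed by 0.34 and its arrays overlapped. The rule chose this gene by its drought ratios, so the p-value is not free of the rule. The call was lost when any 1 of 7 arrays was left out, with adjusted p-values of 0.0645 to 0.123, and kept without water day 3 replicate 1 (adjusted p = 0.0425). It was also lost with the scanner's processed signals (1.47, adjusted p = 0.0813) and with median scaling (0.99, adjusted p = 0.114). The direction was the same in each of these fits. With each pair of arrays counted as 1 value, which leaves 1 residual degree of freedom before moderation, 82 of the 449 expressed genes were called. Of the 40, 7 were called, no larger a share than over the expressed genes (AGABI2DRAFT_205009 at a limma adjusted p of 0.00329). AGABI2DRAFT_205009 had a net signal of 40 or more in 7 of its 8 water channels. Supplement and slide row cannot be told apart in this difference.

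AGABI2DRAFT_121851 came next, with levels of 6.66, 6.83, 6.28 and 6.42 with riboflavin and 6.14, 6.21, 5.95 and 6.05 on water, a difference of 0.46 ± 0.09 (limma adjusted p = 0.0546). AGABI2DRAFT_194933 differed by 0.42 ± 0.10 and AGABI2DRAFT_115419 by 0.60 ± 0.17, with limma adjusted p-values of 0.0946 and 0.106. The arrays of these 3 genes did not overlap, but none of the 3 passed the threshold. AGABI2DRAFT_121851 and AGABI2DRAFT_194933 reached a net signal of 40 in only 1 water channel each, so they counted as expressed only with their riboflavin channels included, and their differences support nothing. At an unadjusted p under 0.05, 101 expressed genes (22.5%) and 8 of the 40 (20%) differed, and all 8 were in the higher group. For day 7 minus day 3 of the level limma called 0 of 449 genes (15, or 3.34%, at an unadjusted p under 0.05, 2 of them among the 40).

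What else joined the 40 genes could hardly be assessed, since only 5 of the 449 expressed genes had a symbol. The reference annotation gave a locus tag for all 40 and a symbol for 1. Of the genes on the array with a symbol for a respiratory complex I subunit (24), 2 were expressed and NdufA1 was the member. The 5 symbols of complex II, whose catalytic subunit binds FAD, gave 2 expressed genes and 0 members. The 6 laccases and the 5 heat shock proteins gave 0 expressed genes. No members lay side by side in the reference order. The nearest pair, AGABI2DRAFT_60108 and AGABI2DRAFT_115419, had 1 gene between them and a correlation of -0.25 over the 8 arrays. The median span of the 40 genes was 1091.5 bases, against 1401 over the expressed genes.

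Repeat spots and the filter on dim signal bear on single members. Of the 24 genes with 2 spots, 18 had both spots alike in sign on all 4 riboflavin arrays, and the median gap between the spots of a gene ran from 0.01 to 0.21. The other 16 genes rest on 1 spot. A filter that asked for signal well above background on both arrays of a group kept 36 of the 40, and 10 genes were above background in fewer than 8 of their 16 channels.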

How the data were processed

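Per the file headers, each of the 8 deposited scanner files comes from Agilent Feature Extraction 11.5.1.1 and lists, for both dyes, the median intensity of a spot and of its surroundings, a processed intensity and a log10 ratio. The table of log2 ratios of red over green was deposited by the authors; the submitters' processing notes name limma, and normexp with an offset of 16 plus loess matched its values to within 5e-10. Here the median intensities were corrected by normexp (offset 50), followed by loess within arrays with control spots at weight 0 in limma 3.58.1 under R 4.3.3. Outlier spots (16 to 37 per array) were left out, and no gene spot was saturated. Ratios were turned to drought over irrigated. Levels are quantile-scaled means of both channels. No array value of the 40 genes was missing, while 4 other expressed genes lacked one, so shares rest on 445 to 449 genes.

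A limma model (lmFit, eBayes) covered the 8 arrays, with 1 term per group and no dye term, since both dye orientations are in every group, and p-values were adjusted by Benjamini-Hochberg over the 449 expressed genes. The number of arrays limits the precision. The 40 genes and the lists were chosen with earlier results of these data known. Named genes are those with a symbol, the 10 highest and 10 lowest by deposited riboflavin mean, the 3 on each side of each limit, called genes and neighbours. Genes listed for an ordering of arrays or set out as brightest go beyond that and were picked with their values known. Marker and pathway lists could be applied only through the 88 array genes with a symbol in the reference table (assembly Agabi_varbisH97_2). Equal replicate numbers did not pair all groups. Deviations from group means correlated at -0.145 to 0.0446 for the ratio in 5 of 6 pairs of groups and at 0.918 between the riboflavin days, and at -0.102 to 0.38 for the level. The model has no term for the spread shared by the riboflavin days, so a replicate term within each supplement was added as an alternative. Other background corrections, scalings, filters and left-out arrays were tried.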

Additional observations from a re-analysis of the deposited data

Results flagged for a closer look

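In 2 of the 40 genes all 4 riboflavin arrays had the opposite sign to all 4 water arrays. AGABI2DRAFT_121909 gave ratios of 0.14, 0.38, 0.74 and 0.33 with riboflavin and -0.04, -0.14, -0.09 and -0.05 on water, and its mean ratio was 0.479 higher with riboflavin. AGABI2DRAFT_44527 gave -0.28, -0.39, -0.10 and -0.13 with riboflavin and 0.07, 0.01, 0.14 and 0.18 on water, a difference of -0.326. The difference was not tested, because the rule that chose the genes used both sets of ratios. No share over the expressed genes was taken for opposed signs, so nothing is read from the count of 2. The water ratios of both genes lay near 0, and the drought channel of AGABI2DRAFT_121909 was above background on 1 of the 4 water arrays. Both genes reached a net signal of 40 in only 1 water channel, so they counted as expressed only with their riboflavin channels included.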

How the results depend on the processing

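The rule gave 26 genes with an offset of 50 (24 of the 40), 19 with median centring (18 of the 40), 32 with processed signals (15 of the 40), 137 with riboflavin replicate 2 turned, 69 with the supplements exchanged, and 38 to 78 when 1 array was left out, the upper values of 64 and 78 coming without riboflavin day 3 or day 7 replicate 1. These settings were chosen after seeing the data. One sign on all riboflavin arrays was kept by 21 of the 40 with median centring, by 28 with processed signals and by 33 to 37 when 1 array was left out (a count that cannot fall), and the water sign was shared by 18 to 27. Genes called for the level of riboflavin against water numbered 48 with processed signals, 13 with the background filter, 16 over all genes, 82 with each dye pair as 1 value (7 of the 40) and 2 to 33 when 1 array was left out. For the level of day 7 against day 3 they numbered 2 with processed signals, 1 over all genes and 1 with median scaling. Day differences of the ratio stayed at 0, except 0 to 31 on water when 1 array was left out. With the replicate number as a block, 7 of the 449 expressed genes were called for riboflavin against water, and 0 in the other 4 comparisons. Of the 40, 2 were called, AGABI2DRAFT_205009 among them (limma adjusted p = 0.0337). The background filter and the test over all genes also called 2 of the 40 each. With a replicate block within each supplement, added after seeing the data, 32 of the 449 expressed genes were called for riboflavin against water. Of the 40, 2 were called (AGABI2DRAFT_205009 and AGABI2DRAFT_115419), no larger a share than over the expressed genes. In the other 4 comparisons 0 genes were called. The riboflavin means of the 10 highest and 10 lowest genes kept their sign with deposited ratios, processed signals, median centring and 1 riboflavin array left out, and were larger in size with processed signals in some, such as 2.92 for NdufA1. The causes were not tested. The level of riboflavin against water was higher in 31 to 36 of the 40 genes when 1 array was left out, 35 with median scaling and 36 with processed signals. Dim irrigated channels limit the ratios of the genes higher under drought.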

Other observations

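Of the expressed genes with a symbol that were not among the 40, 3 showed opposed or single-array responses with riboflavin. CytC2, a cytochrome c, was above 0 on all 4 water arrays with 1.22, 0.92, 1.96 and 1.66, a mean of 1.44 ± 0.46 (SD, n = 4). With riboflavin it gave -0.39, 0.07, -0.40 and 3.47, so 1 array, day 7 replicate 2, carried its mean of 0.69 ± 1.87. SDH1, the flavin-bearing subunit of complex II, gave 0.26 and 0.98 on the riboflavin replicate 1 arrays and -2.68 and -2.65 on the replicate 2 arrays. NdufS7, a subunit of complex I, gave -2.41 on riboflavin day 3 replicate 1 and -0.36 to 0.09 on the other 3, with only 3 of its 16 channels above background. These are values with no test.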
